A study of Mus musculus with 6 samples.

Results

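The 9 genes described here are known as markers or parts of arterial endothelium and were followed in RNA from mouse lung endothelial cells. They are the connexin genes Gja1, Gja4 and Gja5, and Bmx, Sox17, Alpl, Htra1, Tm4sf1 and Stmn2. They were taken by symbol and found through their Ensembl identifiers as 9 of the 24520 gene rows in the deposited tables. The cells were sorted from lung by fluorescence-activated cell sorting from mice labelled wild type (WT) or knockout (KO) for Dnmt3a, the gene of a DNA methyltransferase that sets new methylation. Each label has 3 libraries, made from small amounts of total RNA with an ultra-low-input cDNA kit. The allele, the Cre line if one was used, the age of the mice, the sort gate and whether each library is a different mouse were not given in the sources used here, so p-values measure the spread between these libraries, which may be partly technical.

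Arterial endothelial cells are joined by gap junctions, channels built from connexin proteins that pass ions and small signals from cell to cell and let a change in vessel tone travel along the wall. The endothelium of arteries and arterioles is known for Gja4 (connexin 37) and Gja5 (connexin 40), while Gja1 (connexin 43) is used by many cell types, smooth muscle, fibroblasts and epithelium among them. Arterial identity is set during development by VEGF and Notch signals together with SOXF transcription factors, of which Sox17 is the one most tied to arteries. Bmx is a non-receptor tyrosine kinase found in arterial endothelium and in the heart's endocardium.

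Library totals ran from 28136194 to 39999172 estimated counts. Dnmt3a itself went against the labels: with the WT label it was at 31.8 to 37.6 CPM (counts scaled by library size and TMM factors), and with the KO label at 161 to 172 CPM (log2 difference 2.22 with an SE of 0.11, edgeR adjusted p = 0.00157). These values sum reads over all exons, so they do not test whether part of the gene was removed. Groups are therefore called by their labels, and higher or lower means KO label against WT label. Whether the labels were exchanged was not tested, and an exchange would turn every direction given here. Pecam1 and Cdh5, which define endothelium, were abundant in all 6 libraries, at 1846 to 2461 CPM and 1989 to 2518 CPM. Xist and Y-linked genes read replicate 1 of each label as female and the other libraries as male. Where 3 values are given for a label, they stand in order of replicate number. In bulk RNA, fewer cells of one vessel type and less RNA per cell cannot be told apart.

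The sequence before a RefSeq start of the connexin genes and Bmx is shown here because a DNA methyltransferase acts on CpG dinucleotides, which stand in capitals. Each line holds the 250 bases before the RefSeq start of the gene (build GRCm38.p6, which is mm10), 5′ to 3′ on the gene's own strand: chr4:127314040-127314289 on the minus strand for Gja4, chr3:97032152-97032401 on the plus strand for Gja5, chr10:56377050-56377299 on the plus strand for Gja1 and chrX:164258194-164258443 on the minus strand for Bmx.
Gja4: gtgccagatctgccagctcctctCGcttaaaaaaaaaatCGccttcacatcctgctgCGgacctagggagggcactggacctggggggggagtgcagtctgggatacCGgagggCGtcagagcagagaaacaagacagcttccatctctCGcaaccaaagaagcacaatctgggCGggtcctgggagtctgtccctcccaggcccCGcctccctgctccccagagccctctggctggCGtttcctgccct
Gja5: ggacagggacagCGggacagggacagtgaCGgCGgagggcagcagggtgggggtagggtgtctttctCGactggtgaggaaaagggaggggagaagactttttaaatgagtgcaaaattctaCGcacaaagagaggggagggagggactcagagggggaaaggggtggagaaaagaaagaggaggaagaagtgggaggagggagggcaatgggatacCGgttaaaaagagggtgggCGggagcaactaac
Gja1: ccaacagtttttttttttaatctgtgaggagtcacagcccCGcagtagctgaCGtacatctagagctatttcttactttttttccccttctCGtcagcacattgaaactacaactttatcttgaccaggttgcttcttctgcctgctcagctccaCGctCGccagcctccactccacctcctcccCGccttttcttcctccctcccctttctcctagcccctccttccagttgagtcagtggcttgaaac
Bmx: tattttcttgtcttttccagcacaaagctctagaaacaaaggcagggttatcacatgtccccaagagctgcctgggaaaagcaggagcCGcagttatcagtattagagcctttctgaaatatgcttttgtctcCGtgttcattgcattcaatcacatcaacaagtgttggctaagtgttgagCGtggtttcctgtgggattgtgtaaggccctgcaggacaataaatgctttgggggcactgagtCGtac

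RefSeq starts were matched for 7 of the 9 genes, with 2 starts for Alpl. That of Gja5 is an inner start, within the annotated span of the gene. Gja4 has 9 CpGs in these bases, Gja5 has 7, Gja1 has 6 and Bmx has 4. Over all 32851 RefSeq starts the median was 6 CpGs, with quartiles of 2 and 16. Htra1 stood at the CpG-rich end with 22, more than 85.2% of all starts, and the upstream start of Alpl had 20, while the inner start of Alpl had 4 and Tm4sf1 had 1. The observed over expected CpG ratio was 0.386 for Gja4, 0.553 for Gja5, 0.468 for Gja1, 0.31 for Bmx, 0.857 for Htra1 and 0.0699 for Tm4sf1. Methylation was not measured in these files, so CpG content is a description of sequence only.

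**Figure D1:**
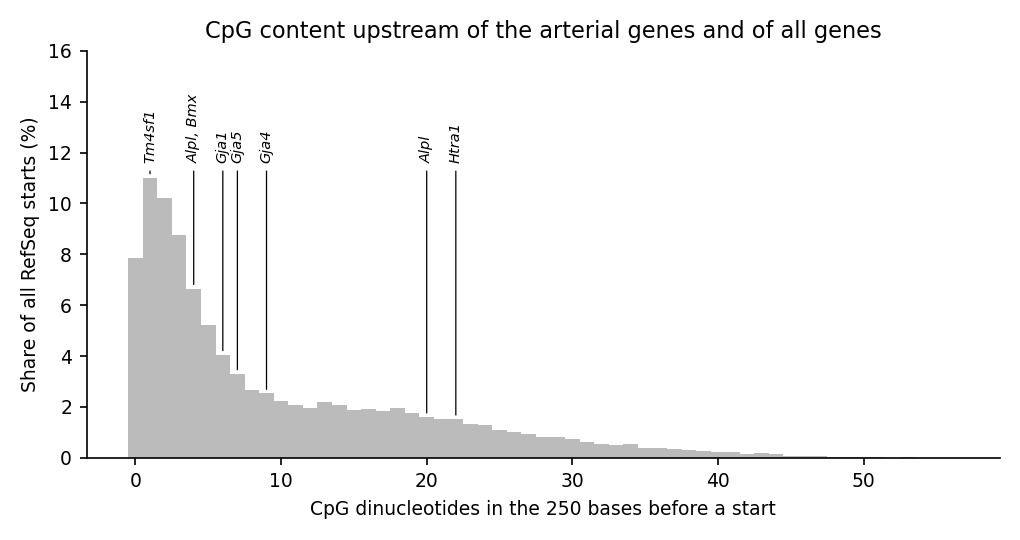
CpG dinucleotides in the 250 bases before a RefSeq start (x axis, count) against the share of all 32851 starts with that count (y axis, percent, gray bars). Lines mark the starts of the arterial genes: Tm4sf1, with 1, is at the mode of all starts, and Htra1, with 22, is in the CpG-rich tail.

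A few short words known from binding sites were searched in the same 250 bases on both strands. The KLF-type word CACCC occurred 4 times before Gja5, 2 times before Htra1, 3 times and 1 time before the starts of Alpl, and at least once in 52.0% of all starts. The RBPJ word TGGGAA, read by the DNA-binding partner of Notch, was found once, before Bmx, and is in 21.6% of all starts. The GATA word TTATCT was found once, before Gja1 (9.99% of all starts). The SOX word ATTGTT (9.42% of all starts) and the E-box CACGTG (6.02%) were in none of the 8 windows.

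Levels were compared between genes in TPM, which scales reads by transcript length and library. Gja4 was the most abundant of the 9 genes, with a mean of 1500.3 TPM over the 6 libraries, which put it at rank 72 of 24520 rows. The TPM columns summed to 875864 to 885609 over these rows, short of a full library, so levels and ranks are those among the rows held. Stmn2, a tubulin-binding protein best known from neurons, came next at 414 TPM (rank 367). Gja5 followed at 133 TPM (rank 1225), Tm4sf1 at 94.3 TPM, Sox17 at 32.1 TPM, Gja1 at 24.1 TPM, Bmx at 14.8 TPM, Htra1 at 9.21 TPM and Alpl at 1.32 TPM (rank 12048). The order of means was the same under both labels. Over the 6 libraries the ranges of neighbours in this order overlapped for Gja5 and Tm4sf1, Sox17 and Gja1, Gja1 and Bmx, and Bmx and Htra1. Within a library, Gja1 was above Bmx in 6 of 6 and Bmx above Htra1 in 5 of 6, while Gja5 was above Tm4sf1 and Sox17 above Gja1 in 4 of 6 each. Over the 6 libraries Pecam1 and Cdh5 averaged 1099 and 933 TPM, below the mean of Gja4. In KO replicates 2 and 3, however, Gja4 was at 895 and 716 TPM, below both genes. There Pecam1 was at 1125 and 1098 TPM and Cdh5 at 965 and 925 TPM. Which vessel types the Gja4 reads came from was not tested.

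**Figure D2:**
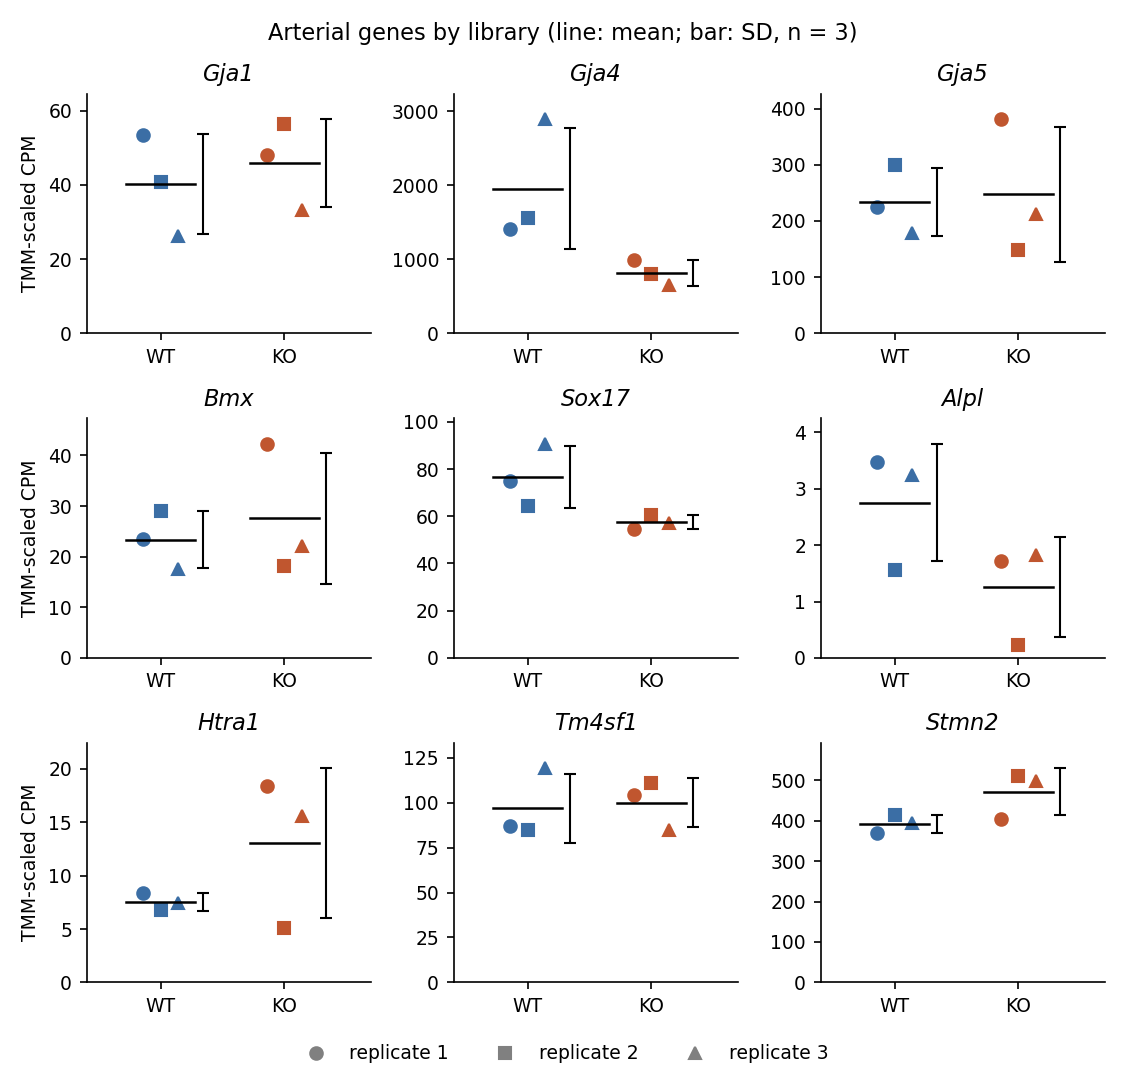
TMM-scaled CPM (y axis, linear from 0) of each of the 9 genes in the 3 libraries labelled WT (blue) and the 3 labelled KO (orange), with the mean (line) and SD (bar). The labels separate for Gja4 and Sox17, and Gja5, Bmx and Htra1 share their highest library, KO replicate 1.

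Between the labels, none of the 9 genes passed edgeR's quasi-likelihood test over all genes. All 9 passed the filter on low counts and were tested with 14667 genes, of which 0.0341% were called at an adjusted p of 0.05. By direction that is 0.0205% called higher and 0.0136% called lower in the libraries labelled KO. At an unadjusted p under 0.05 there were 2 of the 9, Gja4 and Sox17, both lower (22.2%, against 12.6% of all tested genes, of which 6.88% higher and 5.77% lower). The same 2 had CPM ranges that did not overlap between the labels, again 22.2%, against 20.3% of all tested genes (10.9% higher, 9.42% lower), so the share of separated genes was near the background. DESeq2 called 1 of the 9, Gja4, where it called 2.78% of the 14853 genes it gave an adjusted p (1.47% higher, 1.31% lower). Of the 9 log2 fold changes, 6 were positive (66.7%, against 50.9% of all tested genes). Their median was 0.08, beside 0.01 over all tested genes.

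**Figure D3:**
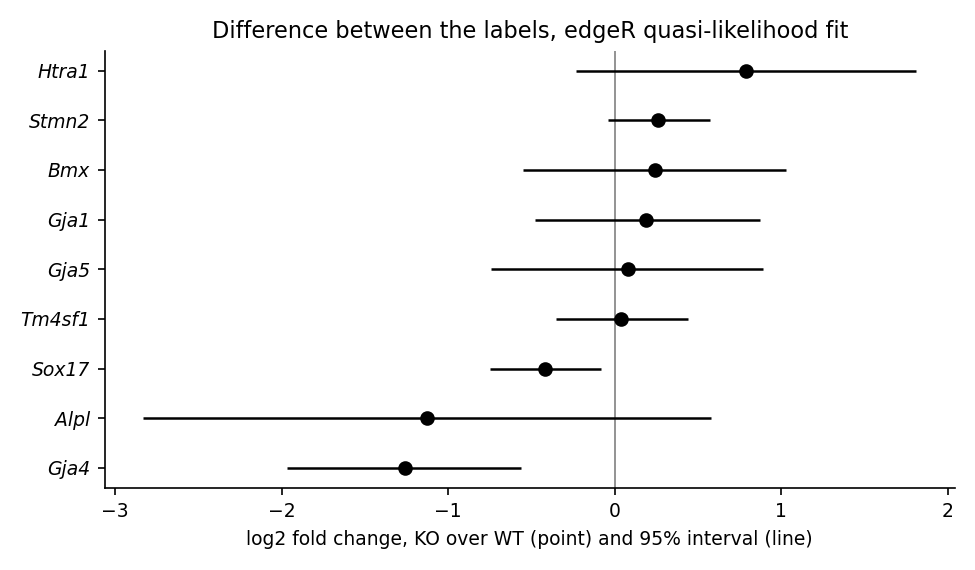
Log2 fold change of KO over WT (points, x axis) with the 95% interval of the edgeR fit (lines) for the 9 genes (y axis). The intervals of Gja4 and Sox17 lie below 0, and the other 7 include 0.

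Gja4, the connexin 37 gene (ENSMUSG00000050234, mm10 chromosome 4, 127311421 to 127314039, minus strand), was lower in every library labelled KO. It was at 1402, 1559 and 2889.9 CPM with the WT label and at 994, 802 and 646 CPM with the KO label. The labels did not overlap, and WT replicate 3 stood well above the other 5 libraries. Means were 1950.3 ± 818 CPM for WT and 814 ± 174 CPM for KO (SD, n = 3 each), 2.4 times higher in WT. The log2 fold change was -1.26 (SE 0.30, 95% interval -1.97 to -0.56), which edgeR did not call (adjusted p = 0.282) and DESeq2 did (-1.27, adjusted p = 0.00102). Across the 19 other settings tried, adjusted p-values for Gja4 lay between 0.00102 and 0.608, and the highest came without WT replicate 3, where the log2 fold change was -0.86. Within the male libraries it was -1.63 (edgeR adjusted p = 0.342), and 1 female library per label allows no test.

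Gja5, the connexin 40 gene (ENSMUSG00000057123, chromosome 3, 96904693 to 97077416, plus strand), showed no such separation. Its level was 225, 299 and 179 CPM with the WT label and 381, 148 and 213 CPM with the KO label. The highest and the lowest value both came from libraries labelled KO. For Gja5 the log2 fold change was 0.08 (SE 0.35, 95% interval -0.74 to 0.89, edgeR adjusted p = 0.943), and without KO replicate 1 it was -0.39 (edgeR adjusted p = 0.581). The interval leaves room for a change of either sign. Gpr89 (96868281 to 96905346) overlaps only the first bases of this span, on the other strand. Over its whole length Gpr89 held 910 to 1695 counts per library against 4474 to 11264 for Gja5. Whether the counting kept strand is not stated, so reads from the overlap cannot be told apart.

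Gja1, the connexin 43 gene (ENSMUSG00000050953, chromosome 10, 56377330 to 56402513, plus strand), overlapped between the labels too. It was at 53.3, 40.8 and 26.3 CPM with the WT label and at 47.9, 56.5 and 33.1 CPM with the KO label, with the third replicate lowest under each label. On the log2 scale Gja1 differed by 0.19 (SE 0.29, 95% interval -0.48 to 0.87, edgeR adjusted p = 0.802), and by -0.04 without WT replicate 3 and 0.44 without WT replicate 1.

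Gja4 made up most of the connexin message. The mouse family of 20 connexin genes summed to 1747, 1973 and 3089 TPM with the WT label and to 1472, 1061 and 915 TPM with the KO label. It held 88.5%, 87.9% and 95.2% of that sum under WT and 79.3%, 84.3% and 78.3% under KO, so its share was lower in each library labelled KO than in each labelled WT. The share of Gja5 was 7.06%, 8.36% and 2.93% under WT and 15.1%, 7.71% and 12.8% under KO, and here the labels overlapped. Gja4 exceeded Gja5 per length in all 6 libraries, by 12.5, 10.5 and 32.5 times with the WT label and by 5.26, 10.9 and 6.11 times with the KO label. These shares add to 100% within a library, so a lower share of one gene raises the others.

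**Figure D4:**
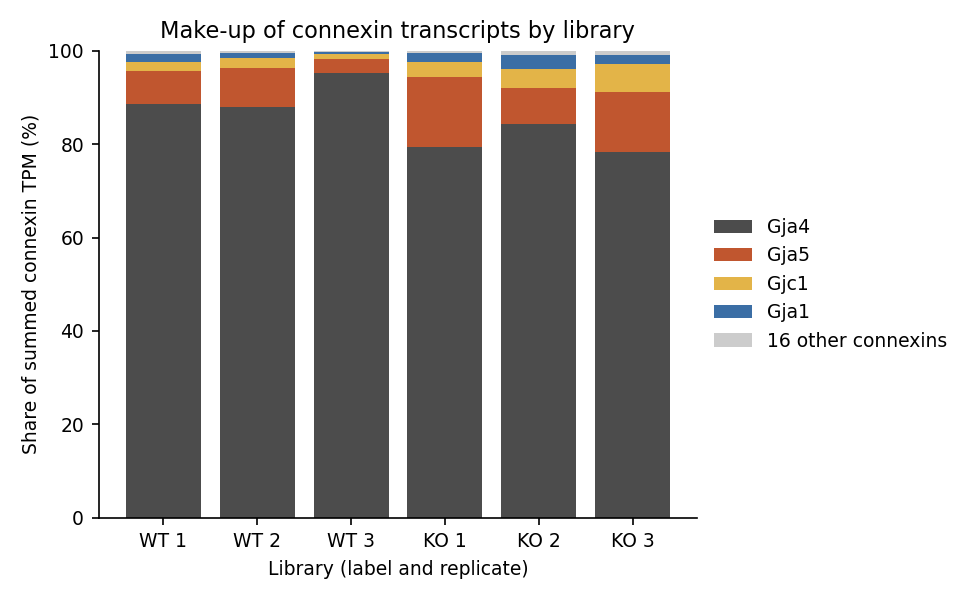
Share of the summed TPM of 20 connexin genes (y axis, percent) taken by Gja4, Gja5, Gjc1, Gja1 and the 16 others in each library (x axis). Gja4 takes 78.3% to 95.2% of the sum, with its 3 lowest shares in the libraries labelled KO.

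Of 20 other connexin and pannexin genes, 6 passed the filter on low counts and none was called by edgeR (0 at an unadjusted p under 0.05) or by DESeq2 (1 at an unadjusted p under 0.05). Gjc1 (connexin 45) was the most abundant of them at 43.4 TPM on average, above the 24.1 TPM of Gja1, and stood at 44.6, 50.5 and 46.8 CPM with the WT label and 52.2, 51.5 and 65.8 CPM with the KO label (log2 fold change 0.26, SE 0.13, edgeR adjusted p = 0.452). Its ranges did not overlap. Gjc3, Panx1 and Gje1 averaged 5.0, 3.59 and 1.48 TPM. Gjb6 and Gjb1 averaged 0.43 and 0.346 TPM. Gja3, Gjb5, Gjd2, Gjd3 and Panx3 had 0 counts in all 6 libraries. Of 8 genes whose proteins bind or traffic connexins, among them the scaffold Tjp1, the caveolar protein Cav1 and the ubiquitin ligase Nedd4, none was called (0 at an unadjusted p under 0.05, and 4 positive and 4 negative log2 fold changes).

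Sox17, the SOXF transcription factor (ENSMUSG00000025902, chromosome 1, 4490931 to 4497354, minus strand), was at 75.1, 64.3 and 90.7 CPM with the WT label. In KO replicates 1, 2 and 3 it was at 54.8, 60.5 and 57.3 CPM. The labels did not overlap, but the gap between the lowest WT and the highest KO library was small, and the libraries labelled KO were the tighter group (76.7 ± 13.3 against 57.5 ± 2.83 CPM, SD, n = 3 each). The log2 fold change was -0.42 (SE 0.14, 95% interval -0.75 to -0.08, edgeR adjusted p = 0.332), and -0.28 without WT replicate 3, and the gene was not called. The transcript Gm37587 overlaps its start on the other strand and was not analysed here. Its relatives Sox7 and Sox18 differed by -0.27 (SE 0.22) and 0.61 (SE 0.18) on the log2 scale and were not called either (edgeR adjusted p = 0.619 and 0.302).

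Bmx, the arterial tyrosine kinase (ENSMUSG00000031377, chromosome X, 164192842 to 164258193, minus strand), was at 23.5, 29.0 and 17.6 CPM with the WT label and at 42.3, 18.2 and 22.2 CPM with the KO label. The labels overlapped, and KO replicate 1 was highest. Bmx had a log2 fold change of 0.24 (SE 0.34, 95% interval -0.55 to 1.03, edgeR adjusted p = 0.789), and -0.21 without KO replicate 1 (edgeR adjusted p = 0.758).

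Htra1, a secreted serine protease that acts on matrix and TGF-beta signals in vessel walls (ENSMUSG00000006205, chromosome 7, 130936111 to 130985660, plus strand), was tightly grouped under WT and spread under KO. It was at 8.37, 6.74 and 7.43 CPM with the WT label and at 18.4, 5.09 and 15.6 CPM with the KO label. KO replicates 1 and 3 were above every library labelled WT and KO replicate 2 was below all of them. Htra1 had a log2 fold change of 0.79 (SE 0.43, 95% interval -0.23 to 1.81, edgeR adjusted p = 0.474). Leaving out KO replicate 1 gave 0.46 for Htra1, and leaving out KO replicate 2 gave 1.18. In this annotation Fgfr2 overlaps the gene on the other strand, with 0 to 175 counts per library against 154 to 543 for Htra1.

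Alpl, the tissue-nonspecific alkaline phosphatase of arterial and capillary endothelium in several organs (ENSMUSG00000028766, chromosome 4, 137741733 to 137796384, minus strand), was close to the limit of what these libraries show. It had 114, 46 and 122 counts with the WT label and 51, 7 and 54 with the KO label, or 3.47, 1.56 and 3.24 CPM against 1.72, 0.231 and 1.83 CPM. The labels overlapped at WT replicate 2. Alpl had a log2 fold change of -1.13 (SE 0.73, 95% interval -2.83 to 0.58, edgeR adjusted p = 0.537), and -0.63 without KO replicate 2. Alveolar type 2 epithelial cells also carry Alpl, and their 10 markers summed to 9420, 341 and 4164 CPM with the WT label and 3651, 2379 and 778 CPM with the KO label. Sftpc and Sftpb, surfactant genes that define these cells, made up most of those sums and were above 0 in every library. The part of these cells in the Alpl values was not tested.

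Tm4sf1, a small membrane protein of endothelial nanopodia (ENSMUSG00000027800, chromosome 3, 57285611 to 57301988, minus strand), had nearly equal means under both labels. It was at 86.9, 84.5 and 119 CPM with the WT label and 104, 111 and 84.9 CPM with the KO label (log2 fold change 0.04, SE 0.17, 95% interval -0.35 to 0.44, edgeR adjusted p = 0.933). Stmn2 (ENSMUSG00000027500, chromosome 3, 8509360 to 8561606, plus strand) was at 369, 413 and 394 CPM with the WT label and at 404, 511 and 497 CPM with the KO label. KO replicate 1 lay inside the WT range, and the other 2 libraries labelled KO were above it. The log2 fold change of Stmn2 was 0.26 (SE 0.13, 95% interval -0.04 to 0.57, edgeR adjusted p = 0.437). Because Stmn2 is known from neurons, 10 neuronal and neuroendocrine markers were summed beside it. They came to 18.1 to 26.2 CPM under WT and 22.9 to 26.6 CPM under KO, mostly Uchl1 and Gap43, all 10 together far below Stmn2 alone. How far such cells bear on the Stmn2 values was not tested.

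Among themselves the 9 genes did not vary as one group. Over the 6 libraries, 15 of 36 pairs had a positive Pearson r of log2(CPM + 1), with a median of -0.16. These values are descriptions over 6 libraries that differ in label, sex and depth, and carry no test. One pair stood out: Gja5 and Bmx had r = 0.97 (Spearman's rho 0.94), and r = 0.98 without KO replicates 1 and 2, the libraries farthest from the median of Gja5. Their CPM ratio stayed between 8.12 and 10.3 in all 6 libraries while Gja5 ran from 148 to 381 CPM and Bmx from 17.6 to 42.3 CPM, and the correlation of their deviations from the label means was 0.99. Gja4 and Sox17 came next, with r = 0.88 (rho 0.77), and r = 0.62 without WT replicate 3 and KO replicate 3. Gja4 and Gja5, the pair of arterial connexins, kept no common ratio, as the values above show.

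**Figure D5:**
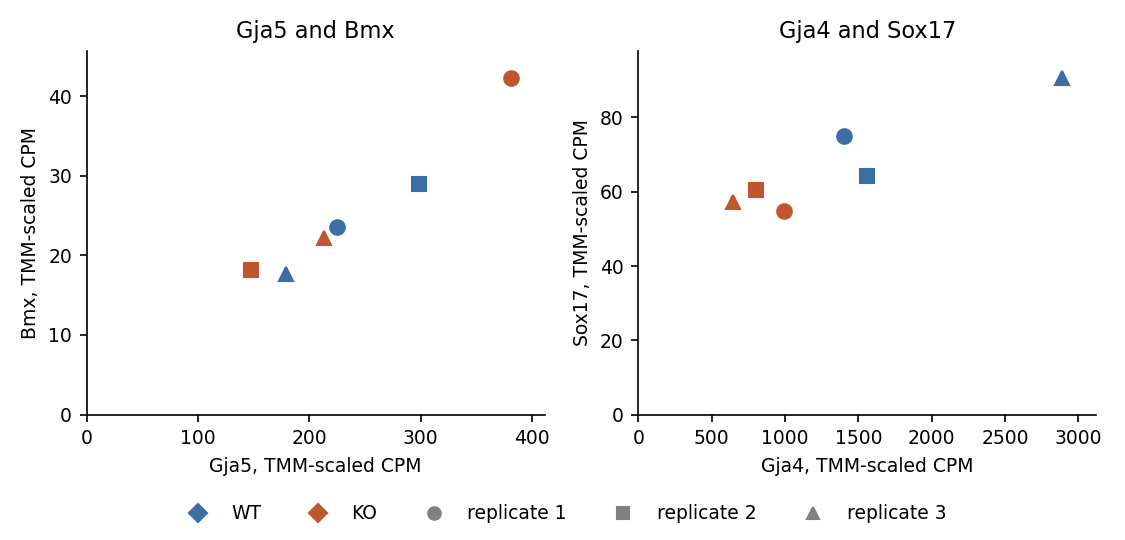
TMM-scaled CPM of Bmx against Gja5 (left) and of Sox17 against Gja4 (right), 1 point per library, blue for WT and orange for KO, with the marker shape giving the replicate. Bmx follows Gja5 across both labels at a ratio of 8.12 to 10.3, whereas the right plot is spread by WT replicate 3.

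Among 8822 genes with a mean of at least 10 CPM, those most like Gja4 over the 6 libraries were Lamb1, a laminin chain of basement membrane (r = 0.997), Mpp1, a membrane scaffold protein (r = 0.997), and H2-D1, an MHC class I heavy chain whose reads can be shared with near-identical copies (r = 0.995). Lamb1 was at 33.9 to 56.9 CPM with the WT label and at most at 25.7 CPM with the KO label (log2 fold change -0.89, SE 0.22, edgeR adjusted p = 0.282), in the same order of libraries as Gja4. Such values were not rare: 109 of these genes had r above 0.95 with Gja4 and 10 had it with Gja5. Those most like Gja5 were Zfp1, a zinc finger gene (r = 0.998), the homeobox gene Hoxa3 (r = 0.99) and the ubiquitin protease Usp32 (r = 0.983), each with a narrower range than Gja5. Zfp1 was at 12.6, 14.7 and 11.4 CPM under WT and 16.6, 10.6 and 12.5 CPM under KO.

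A wider list of 39 other arterial genes held 1 gene called by edgeR, Mgp, where 0.0341% of all tested genes were called. The list had 22 positive and 17 negative log2 fold changes (56.4% positive, against 50.9% of all tested genes) with a median of 0.09. Mgp, the calcification inhibitor matrix Gla protein, was at 39.3, 40.3 and 43.8 CPM with the WT label and at 125, 103 and 119 CPM with the KO label (log2 fold change 1.49, SE 0.12, edgeR adjusted p = 0.016), and kept its call in only 1 of the 6 fits that left out a library, that without KO replicate 2. At an unadjusted p under 0.05 there were 12 of 39 (30.8%, against 12.6% of all tested genes), 9 higher and 3 lower. Ranges did not overlap for 15 of 39 (38.5%, against 20.3%), 11 higher and 4 lower. DESeq2 called 7 of the 39, 5 higher and 2 lower (17.9%, against 2.78% of all genes given an adjusted p). Like the 9 genes, this list and those of other vessels and cells were chosen with earlier results of these data known. Their shares beside the background are therefore descriptions and do not measure enrichment. Eln, the elastin gene, was at 611, 435 and 773 CPM under WT and 2225, 1235 and 1484 CPM under KO (log2 fold change 1.44, SE 0.28, edgeR adjusted p = 0.24), a separation in the direction opposite to Gja4. The 4 genes that separated in the same direction as Gja4 were Clu, Slc6a6, Edn1 and Unc5b. Their log2 fold changes were -1.14 (SE 0.21), -1.16 (SE 0.37), -1.22 (SE 0.48) and -1.52 (SE 1.05). None of them was called by edgeR (adjusted p from 0.23 to 0.565), while DESeq2 called Clu and Slc6a6.

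The most abundant other genes of the list showed no called difference. Acvrl1, a BMP receptor, Ace, the angiotensin-converting enzyme, and Nrp1, the VEGF and semaphorin co-receptor, had log2 fold changes of -0.13 (SE 0.17), 0.05 (SE 0.16) and -0.08 (SE 0.17). Fbln2, a matrix protein, and Cxcl12, a chemokine of arterial endothelium, stood at log2 fold changes of -0.26 (SE 0.34) for Fbln2 and -0.36 (SE 0.26) for Cxcl12. None of these 5 was called, with edgeR adjusted p from 0.575 to 0.911.

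Values of other vessel types and cells were read beside the arterial genes. Of 13 tested venous genes, 9 had positive log2 fold changes (69.2%, against 50.9% of all tested genes). The median of the 13 was 0.31, and none was called by edgeR. At an unadjusted p under 0.05 there were 6 of 13, all higher (46.2%, against 12.6% of all tested genes), and DESeq2 called 3 of the 14 listed (21.4%, against 2.78%). The venous sum was 1935 to 2086 CPM under WT and 2211 to 3139 CPM under KO, without overlap. The separation of the sum came from Vwf, at 589, 401 and 536 CPM under WT and 1255, 809 and 1086 CPM under KO. The rest of the venous sum overlapped between the labels. Gene by gene, ranges did not overlap for 4 of the 13, all higher (30.8%, against 20.3% of all tested genes): Vwf, Ephb4, Slc6a2 and Prss23. Slc6a2 was at 26.0, 8.16 and 20.4 CPM under WT and 97.1, 72.5 and 121 CPM under KO (log2 fold change 2.41, SE 0.41). Prss23 had a log2 fold change of 1.59 (SE 0.19). DESeq2 called both, and edgeR called neither (adjusted p = 0.216 and 0.0952). Aplnr, the most abundant gene of the venous list and also on the general capillary list, had a log2 fold change of -0.08 (SE 0.19). Ephb4 had 0.31 (SE 0.13), Vwf had 1.05 (SE 0.21) and Amigo2 had 0.98 (SE 0.37). Nr2f2, the transcription factor of venous identity, had 0.27 (SE 0.36). Lcn2 had -2.0 (SE 1.05), at 29.5, 1.05 and 11.9 CPM under WT and 6.19, 3.37 and 1.05 CPM under KO. Its highest libraries, WT replicates 1 and 3, were also those of the alveolar type 2 sum. How far epithelial RNA bears on Lcn2 was not tested. The 8 lymphatic markers summed to 357 to 690.3 CPM under WT and 986 to 1305 CPM under KO, mostly Lyve1 and Flt4. Lyve1 alone separated them: the other 7 summed to 156 to 230.4 CPM under WT and 196 to 225 CPM under KO. Apart from Lyve1 and Flt4, no lymphatic marker was above 4.74 CPM in any library (Mmrn1, WT replicate 2), and Prox1 was at 0.477 to 2.87 CPM. The 12 pan-endothelial markers overlapped, at 16163 to 20403 CPM under WT and 16132 to 19114 CPM under KO, led by Egfl7 and Cldn5.

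Smooth muscle and pericyte markers, the cells next to arterial endothelium, overlapped between the labels and varied widely within them. Their 15 genes, all tested, summed to 377, 129 and 528 CPM with the WT label and to 637, 575 and 146 CPM with the KO label, with Acta2 and Tagln the most abundant. Fibroblast markers (15 of 15 tested) summed to 291 to 671 CPM under WT and 474 to 748 CPM under KO, with no marker at 0 in all libraries. Of their log2 fold changes 12 were positive (80.0%, against 50.9% of all tested genes). Ranges did not overlap for 7 of the 15, all higher with the KO label (46.7%, against 20.3% of all tested genes), and 6 of the 15 had an unadjusted p under 0.05, all higher (40.0%, against 12.6%). Fn1, at 365 CPM in WT replicate 3, and Col3a1 had the highest CPM of that list. Col3a1 was the 1 fibroblast marker called by edgeR, where 0.0341% of all tested genes were called. It was at 52.7 to 60.7 CPM under WT and up to 144 CPM under KO, without overlap (log2 fold change 1.22, SE 0.11, edgeR adjusted p = 0.0223), a call lost in each of the 6 fits that left out a library. How far these cells bear on the values of Gja1, Htra1 or Mgp was not tested.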

How the data were processed

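RNA of sorted mouse lung endothelial cells was measured in 3 libraries labelled WT and 3 labelled KO. The authors deposited estimated counts per Ensembl gene, in whole numbers without normalization, and TPM values per gene. The submitters' processing notes name kallisto and mm10; the version, the annotation and the way transcripts were summed to genes were not given in the sources used here. GENCODE M21 gave symbols for 24298 of 24520 identifiers. Rounding changed no count. Groups and replicate numbers came from the titles.

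All genes were tested with edgeR 4.0.16 (quasi-likelihood test, TMM, filterByExpr by label, Benjamini-Hochberg at 0.05, R 4.3.3), with no covariate. SE is the log2 fold change divided by the square root of F. CPM values are TMM-scaled, and TPM served for levels between genes. The code was tested on simulated data. The floor of 3 counts per library lies at 0.0795 to 0.102 CPM, covering counting error only.

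Alternatives were DESeq2 1.42.0, limma 3.58.1 on counts and on log2(TPM + 1) or log2(TPM + 0.1), other factors and filters, a replicate block, sex as a covariate, male libraries only, and leaving out each library. The genes and lists were chosen with earlier results of these data known. Named genes were all 9 arterial genes, called members of 3 lists and their 6 most abundant genes by TPM, and the 3 genes most like Gja4 and Gja5 in log2(CPM + 1). Other genes outside this rule were named after their values were seen. They are Sox7, Sox18, Tjp1, Cav1, Nedd4, Clu, Slc6a6, Edn1, Unc5b, Slc6a2, Prss23, genes with 0 counts, the overlapping genes and marker genes. Protein sequences were not used here.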

Additional observations from a re-analysis of the deposited data

How the results depend on the processing

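The log2 fold changes of Gja4, Sox17, Alpl, Htra1 and Stmn2 kept their sign in all 19 alternatives, at -1.63 to -0.86, -0.53 to -0.28, -1.49 to -0.62, 0.46 to 1.18 and 0.20 to 0.35. Those of Gja1, Gja5, Bmx and Tm4sf1 changed sign in 1, 4, 2 and 4 alternatives. Of the 9 genes, only Gja4 was called in any fit, by DESeq2. DESeq2 called 413 genes, 1 of the 9 arterial genes, 7 of the 39 other arterial genes (17.9%) and 3 of 14 venous genes (21.4%), against 2.78% of all genes with an adjusted p. Limma on log2(TPM + 1) without a filter called 3 genes in all, and sex as a covariate left 2 genes in all and 0 other arterial genes. Male libraries only, by edgeR, gave 0 of all genes (1572 at an unadjusted p under 0.05) and 0 other arterial genes. Leaving out each library gave 1 to 4 genes in all and 0 to 1 other arterial genes. Counts for the 9 arterial genes stayed at 0 in each alternative except DESeq2.

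With the replicate number as a replicate block, edgeR called 0 of all genes (1472 at an unadjusted p under 0.05) and 0 other arterial genes; Gja4 had a log2 fold change of -1.2 (edgeR adjusted p = 0.468). The labels do not say that numbers pair libraries, and the deviations of same-numbered libraries correlated at 0.275, -0.053 and -0.169, so the numbers were not taken as pairs, although both libraries numbered 1 read as female. WT replicate 2 and WT replicate 3 each correlated best with another number. Depth limits Alpl most, with 7 counts in KO replicate 2.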
